A study of Mus musculus with 8 samples.

Results

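miR-221 and miR-222 are a pair of microRNAs (miRNAs) whose hairpin precursors lie next to each other on the mouse X chromosome. Each hairpin can yield a mature miRNA from its 5′ arm (5p) and from its 3′ arm (3p), so the cluster has 4 members, chosen here by name: mmu-miR-221-5p, mmu-miR-221-3p, mmu-miR-222-5p and mmu-miR-222-3p (below without the species prefix). All 4 were among the 1966 mature miRNA names of the count table, and all 4 were among the 564 that were abundant enough to be tested. They were compared by miRNA-seq between mouse articular chondrocytes in primary culture that received vehicle (n = 4 libraries) and such cells that received the inflammatory cytokine interleukin-1β (IL-1β) at 1 ng/ml (n = 4 libraries). Articular chondrocytes are the cells that make and maintain joint cartilage. Cells of both groups came from femoral head cartilage of wild-type mice aged 3 weeks, were cultured in medium with serum and antibiotics, and were collected after 24 h of treatment. Strain and sex of these mice were not given in the sources used here. The labels did not say whether the libraries of a group came from separate animals or cultures, so all p-values measure the spread between libraries, which may be technical.

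A mature miRNA guides silencing complexes to mRNAs, and its bases 2 to 8, the seed, are the main determinant of which mRNAs are bound. miR-221 and miR-222 are paralogs that are thought to be cut from a shared primary transcript. They are best known for repressing the cell cycle inhibitor p27 (Cdkn1b) and the receptor Kit, and they are abundant in endothelial and vascular smooth muscle cells. In cartilage, miR-221 has been studied as a negative regulator of chondrogenesis. In several cell types their transcription responds to NF-κB, the pathway that IL-1β activates.

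The 3p arms are shown because they carry the main result, beside miR-1928, which is the only other mature mouse miRNA of the reference (1679 names) with the same seed. The mature sequences are from RefSeq (build GRCm38.p6), which held 3 of the 4 members, all but miR-222-5p. Capitals mark the seed.
miR-221-3p: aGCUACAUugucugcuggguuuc
miR-222-3p: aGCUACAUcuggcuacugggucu
miR-1928: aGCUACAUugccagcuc
miR-221-5p: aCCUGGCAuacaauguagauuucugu

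miR-221-3p and miR-222-3p are both 23 nt long and begin with the same 8 bases. Beyond these they diverge, and 12 of 23 positions differ, so reads of the full length can be told apart. No other mature miRNA of the reference had the seed of miR-221-5p. miR-1928 (GRCm38, chr1:74206562-74206578, minus strand) had 0 counts in every library and 3 counts are the limit that a count of 0 allows. In CPM (counts per 1000000 counts of the library) this limit was 1.91 to 4.87. Of the names with a sequence in the reference, those with the seed GCUACAU and any counts were thus miR-221-3p and miR-222-3p.

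The hairpins are shown to place the arms, with the mature sequences that RefSeq lists in capitals.
Mir221: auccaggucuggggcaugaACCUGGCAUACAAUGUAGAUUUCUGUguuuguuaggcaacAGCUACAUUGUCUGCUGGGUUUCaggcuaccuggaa
Mir222: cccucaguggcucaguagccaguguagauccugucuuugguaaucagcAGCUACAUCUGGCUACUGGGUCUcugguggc

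In GRCm38, Mir221 (chrX:19146294-19146388) and Mir222 (chrX:19146893-19146971) both lie on the minus strand, 504 bp apart, with Mir222 upstream in the direction of transcription. In the GENCODE M21 annotation the span of 678 bp overlapped no gene other than the hairpins themselves, so neither lies in an annotated host gene. The nearest annotated gene was Gm14636, a non-coding transcript on the minus strand whose closer end lies 10010 bp away on the upstream side of the cluster. The nearest protein-coding gene was Tex13c3, at a distance of 332449 bp.

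Library totals ranged from 616475 to 1568367 counts, so that a single count was worth 0.638 to 1.62 CPM. Values below are normalized CPM, that is CPM after TMM scaling between libraries. The chondrocyte marker miR-140-3p was at 129168 to 163549 normalized CPM in all 8 libraries, and the chondrocyte list (arms of miR-140 and miR-455, 4 miRNAs, none called) took 15.6% to 16.8% of counts with vehicle and 12.4% to 15.3% with IL-1β. Of the lists for other cell types, the endothelial list (the arms of miR-126a) took at most 0.000288% of counts in any library, with miR-126a-5p at 0 throughout. The haematopoietic list took 0.00441% to 0.00638% with vehicle and 0.00260% to 0.00471% with IL-1β, with 5 of its 7 miRNAs, including miR-142a-3p, at 0. Its only tested member, miR-150-5p, had a mean of 52.7 ± 8.20 normalized CPM (SD, n = 4) with vehicle and 35.7 ± 8.31 with IL-1β. This log2 fold change of -0.51 was not called (edgeR adjusted p = 0.196). The epithelial list took at most 0.000316% with vehicle and 0.000162% to 0.00115% with IL-1β, and the skeletal muscle (5 miRNAs) and liver (2 miRNAs) lists had no counts. miR-143 and miR-145a arms, typical of smooth muscle and fibroblasts, took 0.0290% to 0.0322% with vehicle and 0.0281% to 0.0361% with IL-1β. IL-1β replicate 4 departed most from its group for some of the values below, such as miR-221-5p. The part of these marker shares in the results below was not tested.

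miR-222-3p, the dominant product of the cluster, was higher in IL-1β-treated cells. In vehicle replicates 1 to 4 it was at 2692, 2824, 2730.1 and 2668 normalized CPM. With IL-1β the 4 values were 4364, 4562, 4203 and 3665. Every IL-1β library lay above every vehicle library, and replicate 4 was the lowest of the IL-1β libraries. The group mean rose 1.54-fold, from 2729 ± 68.2 (SD, n = 4) with vehicle to 4198 ± 385 with IL-1β. On the log2 scale this was a fitted change of 0.62 (SE 0.0842). By mean abundance it ranked 34 of 564, against 90 for miR-221-3p, 199 for miR-221-5p and 304 for miR-222-5p. The adjusted p was 2.46e-05 in the edgeR quasi-likelihood test, the third smallest p among the 564 miRNAs. Without IL-1β replicate 4 the fitted change was 0.68, and when any of the other 7 libraries was left out it was 0.58 to 0.64, called each time. In bulk samples such as these, a change in the number of cells of a type and a change in miRNA per cell cannot be told apart.

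miR-221-3p, which has the same seed, was not called. In vehicle replicates 1 to 4 it was at 410.3, 404, 395 and 377 normalized CPM. With IL-1β the 4 values were 428.7, 407, 449 and 431. The groups overlapped by a small margin, since IL-1β replicate 2 was below vehicle replicate 1. The means were 397 ± 14.6 and 428.9 ± 17.0 (SD, n = 4), and the log2 fold change of 0.11 (SE 0.0879) was not past the threshold (edgeR adjusted p = 0.753). Taken alone, the difference in log2 normalized CPM was 0.11, with a two-sided exact permutation p of 0.0571, so a small rise cannot be told from none.

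The 5p arms were scarcer and their values carried more counting error. miR-221-5p had 24 to 72 counts per library. It was at 38.2, 48.0, 40.0 and 40.5 normalized CPM in vehicle replicates 1 to 4, and at 38.4, 43.8, 46.8 and 79.0 in IL-1β replicates 1 to 4. IL-1β replicate 4 stood above all other libraries, whereas IL-1β replicates 1 to 3 lay within the vehicle range. The means were 41.7 ± 4.36 and 52.0 ± 18.3 (SD, n = 4). On the log2 scale the fitted change was 0.31 with an SE of 0.200, which was not called (edgeR adjusted p = 0.668), and without IL-1β replicate 4 it was 0.04.

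miR-222-5p, the partner arm of the miRNA that rose, had 4, 15, 8 and 8 counts in vehicle replicates 1 to 4 and 8, 22, 6 and 15 counts in IL-1β replicates 1 to 4. This corresponds to 4.24, 10.01, 4.998 and 12.5 normalized CPM with vehicle and 12.8, 18.5, 8.77 and 18.8 with IL-1β. The groups overlapped, because IL-1β replicate 3 was below vehicle replicates 2 and 4. With 6 counts, the 95% Poisson interval of IL-1β replicate 3 alone spanned 3.22 to 19.1 normalized CPM. The means were 7.93 ± 3.96 and 14.7 ± 4.84 (SD, n = 4). The log2 fold change of 1.01 was the largest of the cluster but had an SE of 0.360 and was not called (edgeR adjusted p = 0.192).

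**Figure D1:**
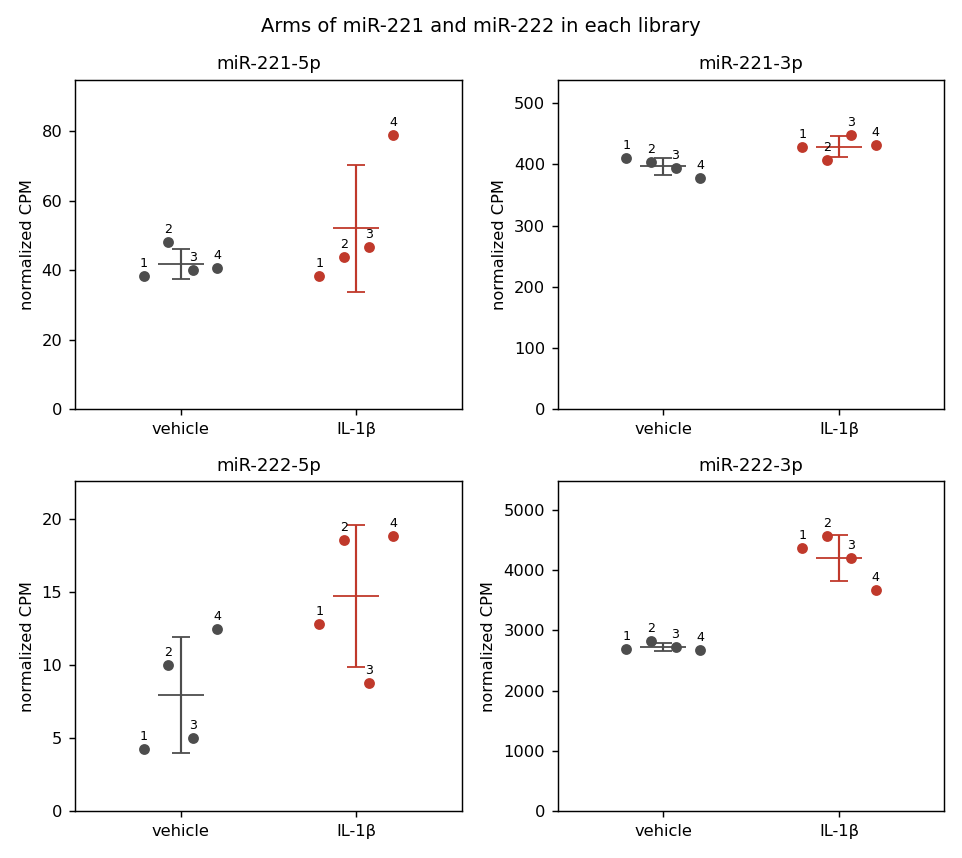
Normalized CPM of each arm of miR-221 and miR-222 (vertical axes, each from 0) in the 4 vehicle and 4 IL-1β libraries, with replicate numbers beside the points and the group mean ± SD as bars. Only for miR-222-3p do the groups stand apart, with 2668 to 2824 against 3665 to 4562.

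Among the 4 members, 1 was called higher, against a background of 1.42% of all miRNAs tested (8 of 564). The 8 became 5 without vehicle replicate 2, 15 without IL-1β replicate 4 and 21 with a factor of unwanted variation. The groups did not overlap, with IL-1β higher, for that member alone, which 4.61% of all miRNAs showed in this direction. All 4 log2 fold changes were above 0, as were those of 50.5% of all miRNAs, and their median was 0.46 against 0.01 over the 564. With 4 members from a single locus, these counts describe the cluster and do not test it.

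**Figure D2:**
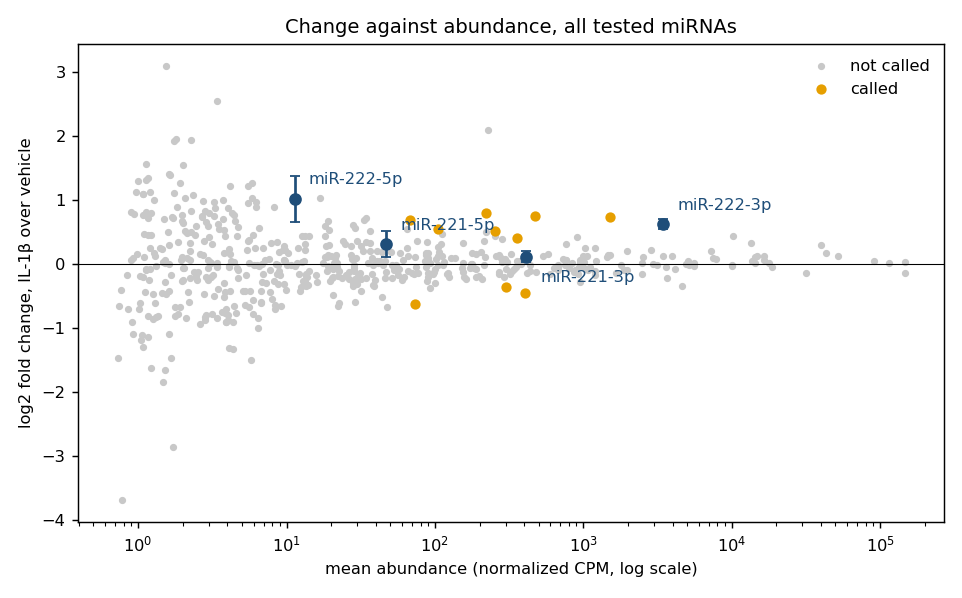
Log2 fold change (IL-1β over vehicle, edgeR) against mean abundance (normalized CPM, log scale) for the 564 miRNAs tested, with called miRNAs in orange, others in grey and the cluster members in blue with bars of 1 SE. miR-222-3p, the called member, lies at 0.62 with a short bar, miR-221-3p at 0.11, and the bar of miR-222-5p at 1.01 is the longest of the 4.

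The cluster as a whole followed its most abundant product, which made up most of the sum, so the total is not a separate result. The 4 arms together took 0.314% to 0.325% of the counts of the vehicle libraries and 0.391% to 0.521% of those of the IL-1β libraries. Summed to a single row and fitted with all other miRNAs, the cluster had a mean of 3173 ± 80.2 normalized CPM with vehicle (SD, n = 4) and 4696 ± 354 with IL-1β. This rise of 0.57 on the log2 scale had an SE of 0.0819 and was called (edgeR adjusted p = 5.42e-05). The share of miR-222-3p in the cluster was 85.6%, 85.9%, 86.1% and 86.1% in vehicle replicates 1 to 4. With IL-1β it was 90.1%, 90.7%, 89.3% and 87.4%. The shares of the groups did not overlap, and IL-1β replicate 4 was the closest to vehicle (95% exact binomial interval 86.2% to 88.5%, against 85.1% to 87.1% in vehicle replicate 3). The share of miR-221-3p moved the other way, from 12.5% ± 0.387 to 9.19% ± 0.936 (SD, n = 4). Shares are parts of a whole, so a rise of miR-222-3p lowers the share of miR-221-3p without a fall in its level. The mean level of miR-221-3p was 397 normalized CPM with vehicle and 428.9 with IL-1β. miR-221-5p took 1.31% ± 0.108 and 1.13% ± 0.505, and miR-222-5p took 0.250% ± 0.126 and 0.317% ± 0.115 (SD, n = 4). Intervals cover counting error only.

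A ratio of a pair of miRNAs within a library does not depend on how libraries are scaled to each other. Because ligation favors some sequences over others, the size of such a ratio is not a molar ratio, and it is its change between groups that was tested. The ratio of miR-222-3p to miR-221-3p was 6.55, 6.98, 6.91 and 7.07 in vehicle replicates 1 to 4, a narrow range. The IL-1β values, in the same order, were 10.2, 11.2, 9.35 and 8.49. The groups did not overlap. The mean ratio was 6.88 ± 0.225 (SD, n = 4) with vehicle and 9.80 ± 1.15 with IL-1β. On the log2 scale the ratio rose by 0.50 (SE 0.13), that is 1.42-fold with a 95% interval of 1.18-fold to 1.70-fold. The limma adjusted p over all ratios fitted (142 between the arms of a hairpin and 2 between miR-222 and miR-221) was 0.0167, and the exact permutation p was 0.0286, the smallest that 4 against 4 libraries can give (0.114 after adjustment over the 4 ratios of the cluster). By p-value this ratio ranked 3 in the fit, whereas by the size of the difference it ranked 52.

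The size of this shift was steady, whereas its call was not. When each of the 8 libraries was left out in turn, the difference ranged from 0.44 to 0.57. The adjusted p was past 0.05 without vehicle replicate 1, 3 or 4 (0.0502, 0.0688 and 0.0696) and without IL-1β replicate 1 or 2 (0.0741 and 0.112). It was 0.000654 without IL-1β replicate 4, and 0.0932 with all libraries and a term for the replicate number. The limma fit of the main comparison draws the spread of each ratio towards a value that depends on abundance. With a value common to all ratios in its place, the limma adjusted p was 0.481.

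The corresponding ratio of the 5p arms, miR-222-5p to miR-221-5p, was 0.123, 0.214, 0.132 and 0.321 in vehicle replicates 1 to 4, and 0.347, 0.429, 0.200 and 0.244 in IL-1β replicates 1 to 4. The groups overlapped. The difference on the log2 scale was 0.68, close in size and direction to that of the 3p arms, but its 95% interval ran from -0.13 to 1.48 (limma adjusted p = 0.667, exact permutation p = 0.143). At 4 to 22 counts of miR-222-5p per library, neither a shift like that of the 3p arms nor its absence could be shown.

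The arms of a hairpin were compared in the same fit. For miR-221, the 3p to 5p ratio was 9.48 ± 0.957 (SD, n = 4) with vehicle and 8.76 ± 2.36 with IL-1β. In vehicle replicates 1 to 4 it was 10.6, 8.37, 9.81 and 9.15, and the IL-1β values were 11.0, 9.21, 9.46 and 5.43. IL-1β replicate 4 was the lowest of the 8 libraries, which is the library in which miR-221-5p was high. The difference was -0.16 on the log2 scale (95% interval -0.60 to 0.29, limma adjusted p = 0.941), and it was 0.06 without that library.

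For miR-222, the 3p arm exceeded the 5p arm 388 ± 178-fold (SD, n = 4) with vehicle and 298 ± 111-fold with IL-1β. The single ratios were 564, 273, 514 and 202 in vehicle replicates 1 to 4 and 321, 241, 443 and 189 in IL-1β replicates 1 to 4, with overlapping groups. The difference was -0.33 on the log2 scale (95% interval -1.14 to 0.49, limma adjusted p = 0.891). It was -0.10 without vehicle replicate 1, -0.15 without vehicle replicate 3 and -0.13 without IL-1β replicate 4, and it was -0.60 without vehicle replicate 4 and -0.54 without IL-1β replicate 3, so its size rested on single libraries. Among 142 hairpins with both arms tested, of which 71 had the higher count on the 3p arm with vehicle, miR-222 ranked 8 and miR-221 ranked 41 by the 3p to 5p ratio. For neither hairpin was a change in the choice of arm detected at this depth.

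**Figure D3:**
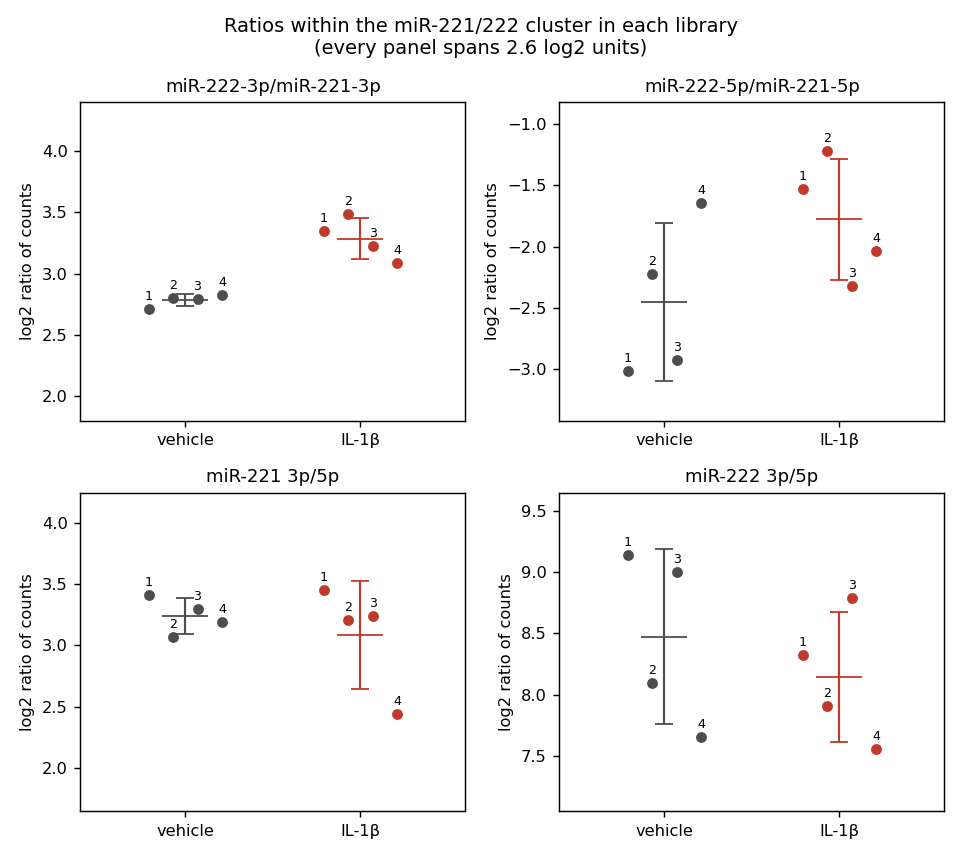
Log2 ratios of counts (vertical axes, each spanning the same number of log2 units) in the 4 vehicle and 4 IL-1β libraries, with replicate numbers and group mean ± SD. The groups separate for miR-222-3p over miR-221-3p and overlap for the 5p ratio and for the ratios between arms, where IL-1β replicate 4 is low for miR-221.

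Of the 4 ratios, 1 was called and did not overlap between groups. Over all ratios, 2.08% (3) were called and 4.86% (7) did not overlap. The other called ratios, named after their values were seen, were those between the arms of miR-210 and of miR-877.

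To see how far neighboring hairpins usually moved together, the same-arm ratio was computed for all adjacent hairpins within 10 kb on the same strand whose mature miRNAs were both tested and have a single locus in the reference. The 5p pair of the cluster was not among the pairs used here. This comparison was chosen after the ratio above had been seen. Of 76 such pairs, 5 did not overlap between groups (6.58%), and by the size of the difference the pair of miR-221-3p and miR-222-3p ranked 23 of the 76. Among the 16 pairs in which both miRNAs had a mean of at least 50 counts, this pair was the only one without overlap (6.25%), and its difference of 0.50 was the largest of the 16. The other 15 lay between -0.25 (miR-381-3p to miR-300-3p) and 0.25 (miR-3072-3p to miR-410-3p). Examples of near-equal change were miR-27a-3p to miR-23a-3p, at 0.07, and miR-125a-5p to let-7e-5p, at 0.13. The pairs are not independent, since some miRNAs, such as miR-127-3p, are in more than a single pair. The hairpins of let-7e and miR-125a enter with both arms.

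**Figure D4:**
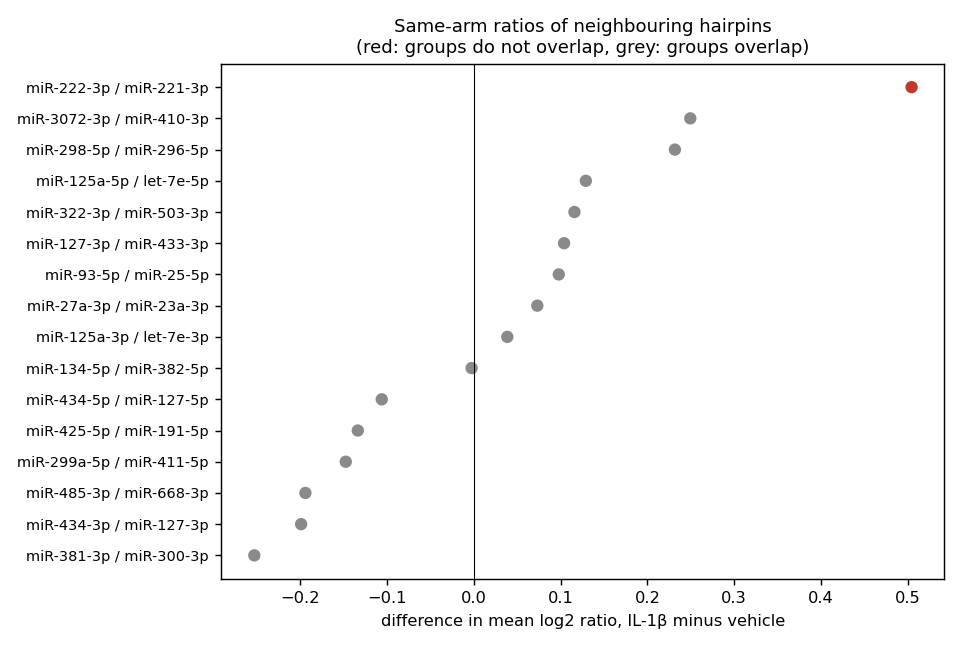
Difference in mean log2 ratio (IL-1β minus vehicle, horizontal axis) for 16 same-arm pairs of adjacent hairpins with a mean of at least 50 counts each, 1 point per pair. The pair of miR-222-3p and miR-221-3p, in red, lies at 0.50, and the other pairs, in grey, lie between -0.25 and 0.25.

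The miRNAs whose levels ran closest to each 3p arm are given as a description. Likeness was measured as the SD of the log2 ratio over the 8 libraries, among 195 other miRNAs with a mean of at least 50 normalized CPM. The nearest to miR-222-3p were miR-210-5p (SD 0.14), miR-129-2-3p (0.14) and miR-1249-3p (0.15), all of which were called higher. miR-210 is known as a miRNA induced by hypoxia. The nearest to miR-221-3p were miR-320-3p (SD 0.07), miR-298-5p (0.08) and miR-92a-3p (0.08), with log2 fold changes of 0.00, 0.11 and 0.01, none of them called. miR-92a-3p has more than a single hairpin locus. miR-221-3p and miR-222-3p were at an SD of 0.29 from each other, so that miR-221-3p was ranked 24 among the profiles near miR-222-3p and miR-222-3p ranked 169 among those near miR-221-3p. Because the measure spans both groups, it contains the difference between them, so that profiles near a miRNA that rose are ones that rose too, and these ranks are no evidence beyond the changes given above.

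**Figure D5:**
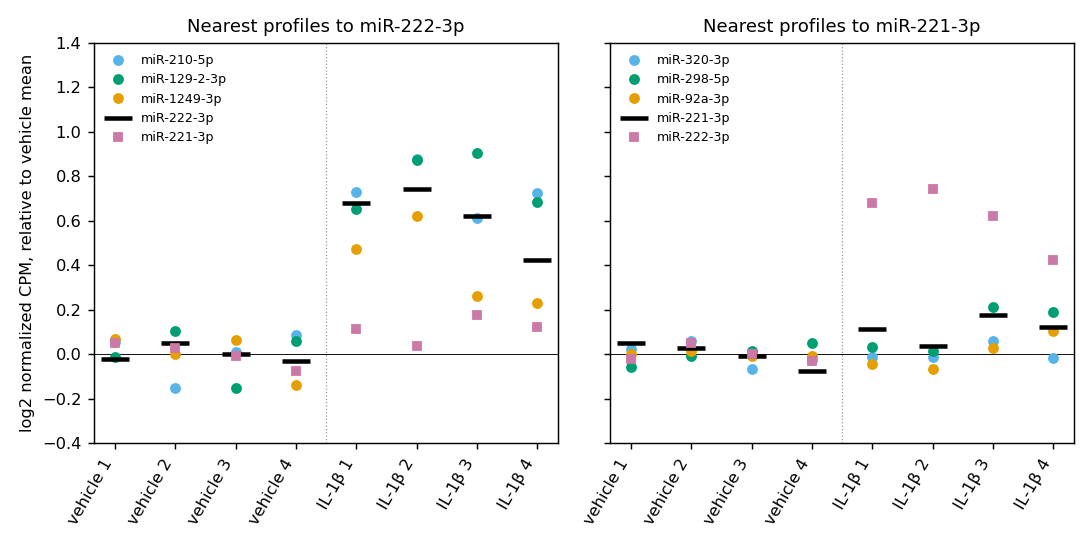
Log2 normalized CPM relative to the mean of the vehicle libraries (vertical axis) in each of the 8 libraries (horizontal axis) for miR-222-3p and its 3 nearest profiles (left) and for miR-221-3p and its 3 nearest profiles (right). In the IL-1β libraries miR-222-3p (bars on the left, squares on the right) is above its vehicle values in all 4, and miR-221-3p (squares on the left, bars on the right) lies below it in each.

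miR-222-3p was set beside other miRNAs that are known to respond to NF-κB. Of a list of 34, without the cluster, 26 were tested and 2 were called, miR-21a-5p and miR-365-2-5p, both higher (edgeR), where 1.42% (8 of 564) of all miRNAs tested were called higher. At an unadjusted p under 0.05, 6 of the 26 were higher and 1 was lower, against 40 higher (7.09%) and 23 lower (4.08%) of the 564. miR-21a-5p, a miRNA linked to inflammation, had a mean of 355 ± 24.4 normalized CPM with vehicle (SD, n = 4) and 597 ± 92.9 with IL-1β, a rise of 0.75 on the log2 scale (edgeR adjusted p = 3.58e-05). miR-365-2-5p rose by 0.68 on the same scale (edgeR adjusted p = 0.0195). The more abundant miR-365-3p, also on the list, had a log2 fold change of 0.19 and was not called (edgeR adjusted p = 0.668). The median log2 fold change of the 26 was 0.20, against 0.01 over all miRNAs tested. miR-146a-5p, a feedback inhibitor of NF-κB signaling, was at 74.8 to 98.1 normalized CPM with vehicle and at 201 to 821 with IL-1β, highest in replicate 4, and was not called (log2 fold change 2.09, edgeR adjusted p = 0.184). miR-155-5p, which many immune cells induce, had a log2 fold change of -0.03 (edgeR adjusted p = 0.992).

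Markers of cells that are rich in miR-221 and miR-222 were read beside these values. miR-126a-3p, the defining endothelial miRNA, had between 0 and 3 counts per library. miR-143-3p was at 261 to 296 normalized CPM with vehicle and at 235 to 371 with IL-1β, highest in IL-1β replicate 4. miR-145a-5p, the other tested miRNA of the smooth muscle and fibroblast list, was at 22.5 to 32.7 normalized CPM with vehicle and at 16.3 to 38.4 with IL-1β, lowest in IL-1β replicate 4. For both miRNAs the groups overlapped, and neither was called.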

How the data were processed

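The 8 miRNA-seq libraries (4 per group) were grouped by their sample labels. The authors deposited whole-number counts per mature miRNA, after trimming (cutadapt), alignment to mm10 (STAR, version 2.4.2a in the submitters' processing notes and a later one in the methods) and counting (featureCounts). Strand and the handling of multi-mapping reads were not given in the sources used here. The study's methods mention RUVseq batch correction. Whether it was applied to the deposited counts was not given in the sources used here, and they were used as deposited.

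miRNAs over 1 CPM in at least 4 libraries were tested with edgeR 4.0.16 (R 4.3.3, TMM, robust quasi-likelihood, group as the only term) and called at a Benjamini-Hochberg adjusted p under 0.05 with an absolute log2 fold change over 0.3. Log2 ratios of counts (pseudocount 0.5) were fitted with limma 3.58.1, with an abundance trend. Exact permutation tests (scipy 1.17.1) were two-sided, with 70 arrangements. Scripts were tested on simulated data. Positions and sequences came from GENCODE M21 and RefSeq on GRCm38, the build of mm10.

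Named miRNAs were the members, miRNAs with their seed, the 3 nearest profiles of each 3p arm, called NF-κB-list members, miR-146a-5p, miR-155-5p and cell type markers. Other names come from the neighbor comparison, the called ratios and the other arm of miR-365, seen first. Members and lists were chosen with earlier results of these data known. Alternatives were other scalings and filters, DESeq2 1.42.0, no robust option, a factor of unwanted variation, other pseudocounts, no trend, a replicate block and leaving out each library.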

Additional observations from a re-analysis of the deposited data

How the results depend on the processing

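miR-222-3p and the cluster total were called in all 16 alternatives, with log2 fold changes of 0.58 to 0.68 and 0.52 to 0.62. miR-221-3p (0.08 to 0.14), miR-221-5p (0.04 to 0.41) and miR-222-5p (0.80 to 1.25) were called in none of the 16, and the lowest adjusted p of miR-222-5p was 0.0817, with a factor of unwanted variation. The number of miRNAs called, 11 in the main comparison, was 7 with DESeq2, 28 with a factor of unwanted variation and 19 with the replicate block, and 7 to 19 when each library was left out in turn (7 without vehicle replicate 2 or IL-1β replicate 1, 19 without IL-1β replicate 4). The cause was not tested.

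The rise of the miR-222-3p to miR-221-3p ratio remained called in 6 of 13 alternatives. It was 0.50 without the trend (limma adjusted p = 0.481), where 0 ratios were called (13 at an unadjusted p under 0.05), and 0.50 with the replicate block (limma adjusted p = 0.0932). It was 0.44 to 0.57 when each library was left out, with adjusted p from 0.000654 to 0.112. The miR-221 3p to 5p ratio, not called in any fit, reversed to 0.0597 without IL-1β replicate 4 (range over left-out libraries -0.28 to 0.06). Deviations of same-numbered libraries from their group means correlated at 0.169, -0.342, 0.1001 and -0.183 (196 miRNAs). The labels did not say whether same-numbered libraries share an animal or culture, and these correlations cannot decide it. In 18 groups of 4 values examined, no library passed Dixon's limit for a value far from the other 3. Depth limits the 5p arms, with 4 to 22 counts of miR-222-5p per library.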
